A study of Mus musculus with 20 samples.

Results

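Amygdala RNA of unstressed mice with and without the serotonin transporter 5-HTT was compared in 10 arrays of a series of 20, namely the 5 arrays labelled knockout, control (KO con) and the 5 labelled wildtype, control (WT con), over all 28767 probe sets. Arrays were chosen by title alone, and each held RNA of the left and right amygdala of 1 male mouse. KO mice were 5-HTT knockouts and WT mice their wildtype counterparts, both on a C57BL/6 background, C57BL/6J in the study's methods, and both bred from heterozygous parents. All were weaned at 21 days, housed singly from 5 months of age, tested in the elevated plus-maze at 7 months and killed 2 weeks later under isoflurane, after 1 min left in the home cage. The remaining 10 arrays, KO stress and WT stress, came from mice handled alike except for 1 min in water at 22 °C. They are used here as a second genotype comparison that shares no array with the first. The deletion was present in every cell from conception, and the dissected piece held all amygdala nuclei together.

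The serotonin transporter, the product of Slc6a4, carries released serotonin back into the nerve ending and so ends its action. It is made by serotonin neurons of the raphe nuclei, whose axons reach the amygdala while their cell bodies, and most of their mRNA, stay in the brainstem. The amygdala answers serotonin through receptors of several families, most of them coupled to G proteins, and holds cortex-like glutamate neurons in its basolateral part and striatum-like GABA neurons in its central part.

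The values are log2 signals, which the authors summarized and normalized together for all arrays. Array medians of the 10 unstressed arrays lay between 6.59 and 6.79, and their 45 pairs correlated at 0.971 to 0.994. WT con replicate 1 correlated least with the others and WT con replicate 5 stood apart in Slc6a4, so that counts are also given without these arrays. The value of WT con replicate 5 lay between those of the other WT con arrays and KO con, and whether its genotype label holds was not tested. Of all 20 arrays WT stress replicate 1 stood furthest from the rest, with a median correlation of 0.961, and values that rest on it are given without it too. Differences are KO con minus WT con on the log2 scale from limma, fitted on all 4 groups, with the standard error (SE) and limma's p, unadjusted unless called adjusted. Adjusted p-values are Benjamini-Hochberg values over the whole array. A probe set is counted as called when it met the criterion of the study's methods, a fold over 1.5 (0.58 on the log2 scale) with an unadjusted p under 0.05. With 5 arrays in each group the smallest possible two-sided exact permutation p is 0.00794, which is reached when the groups do not overlap. The labels call the arrays of a group biological replicates.

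Slc6a4 gave the largest difference and the smallest p of all probe sets, and its signal was higher in the arrays labelled KO. The gene (gene ID 15567) lies on chromosome 11 at 76998597 to 77032343 in GRCm38.p6. Its log2 values in replicates 1 to 5 were 6.73, 5.82, 6.20, 6.52 and 7.82 in WT con and 8.17, 8.20, 8.14, 8.17 and 8.11 in KO con. The 5 KO values lay within 0.09 of each other and above all WT values, whereas WT con replicate 5 lay 1.10 above the next WT array. Means were 6.62 ± 0.75 (SD, n = 5) in WT con and 8.16 ± 0.03 in KO con, a difference of 1.54 (SE 0.23), or 2.91-fold. With an adjusted p of 0.0804 from limma it missed the threshold of 0.05, and the exact permutation p was 0.00794. Without WT con replicate 5 the difference was 1.84 with an adjusted p of 1.18e-06 from limma. In the stressed arrays the values were 6.55, 6.32, 6.30, 6.44 and 6.35 in WT stress and 8.10, 8.38, 8.28, 8.35 and 8.27 in KO stress, so that no WT stress array came near WT con replicate 5. The sources used here do not say whether the probes fall inside the removed stretch, so that the level separates the genotypes but does not measure loss of the transporter.

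**Figure D1:**
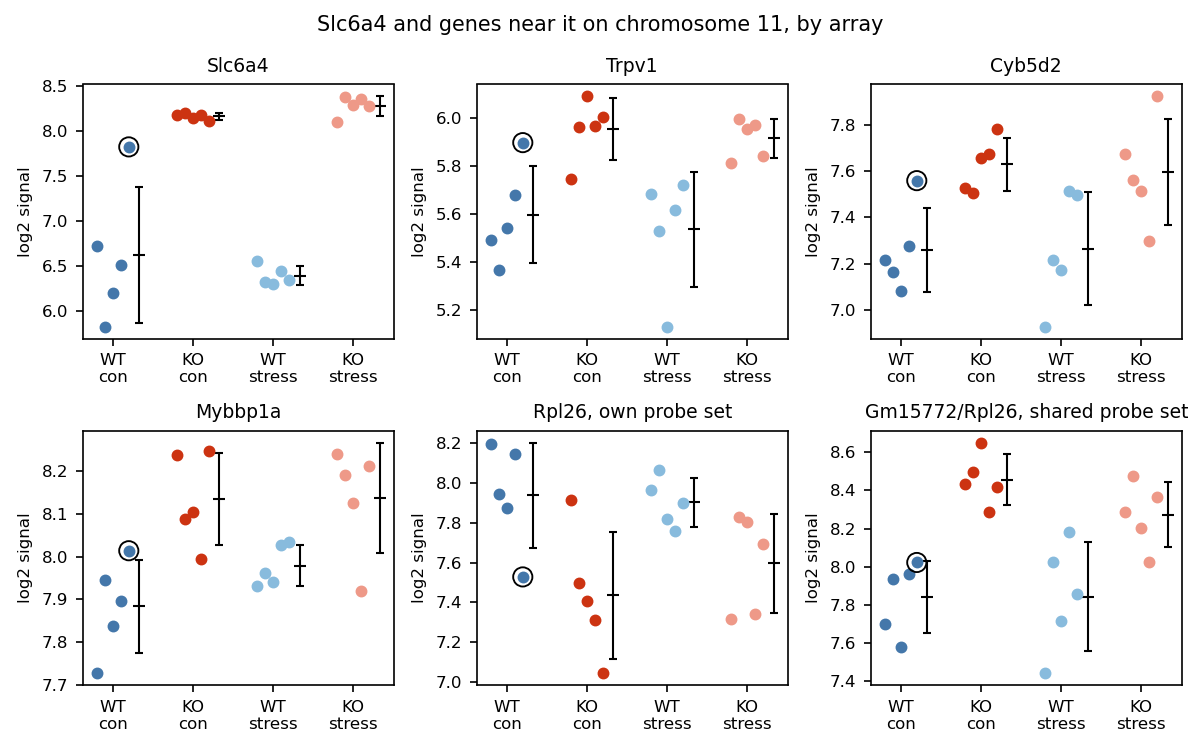
Log2 signal (y axis) of Slc6a4, 3 neighbouring genes of chromosome 11 and 2 probe sets of Rpl26 in the 4 groups of 5 arrays (x axis), with points for single arrays in order of replicate number, bars for the mean ± SD and a ring around WT con replicate 5. The ringed array is the WT con array nearest to KO con in all 6 panels, and in Slc6a4 it lies at 7.82 against 6.73 or less in the other WT con arrays. The genes drawn were picked for their difference between these same arrays. In Nlk and Zfp39, neighbours that are not drawn, the ringed array lies on the side of the other WT con arrays' mean away from KO con.

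Apart from Slc6a4, few transcripts separated unstressed KO and WT mice. In all, 14 probe sets were called, 7 of them higher and 7 lower in KO con, which is 0.0487% of those tested and 0.0243% in each direction. None reached an adjusted p under 0.05 (limma, 0%), although 1026 had an unadjusted p under 0.05 (3.57%), 547 higher (1.9%) and 479 lower (1.67%). KO and WT arrays did not overlap in 246 probe sets (0.855%), 128 higher (0.445%) and 118 lower (0.41%). With no genotype difference, a proportion of about 0.00794 would not overlap by chance, and about 0.05 would have an unadjusted p under 0.05. In the stressed arrays the criterion of fold and p called 221 probe sets (0.768%), and 107 (0.372%) without WT stress replicate 1. The count of 14 was sensitive to single arrays, with 87 calls when WT con replicate 1 was left out, 68 when it was WT con replicate 2, 43 when it was KO con replicate 4, 24 when it was KO con replicate 5, 22 when it was WT con replicate 4 or KO con replicate 3, and 8 when it was WT con replicate 3. Without WT con replicate 5 there were 11, 6 higher and 5 lower. Without WT stress replicate 1, which enters only the estimate of spread here, there were 16, but 2273 probe sets had an unadjusted p under 0.05 (7.9%), 1102 higher (3.83%) and 1171 lower (4.07%), and again none an adjusted p under 0.05. After quantile normalization 2 were higher and 5 lower, and after centring on array medians 12 were higher and 5 lower.

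**Figure D2:**
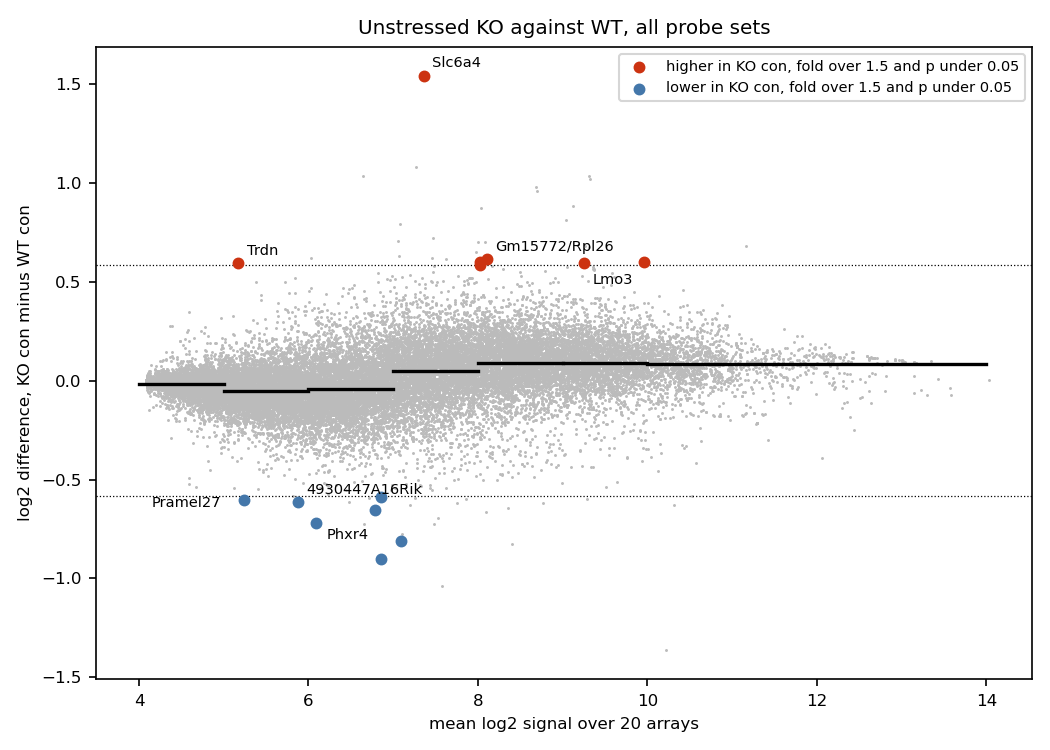
Difference of KO con and WT con (y axis, log2) against the mean log2 signal over 20 arrays (x axis) for 28767 probe sets, with the 14 called probe sets in colour, dotted lines at a fold of 1.5 and black bars at the median difference of each range of signal. Slc6a4 stands alone at 1.54, and the medians run from -0.05 at a signal of 5 to 6 up to 0.09 at 8 to 9.

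Only 6 of the 14 called probe sets carry 1 gene symbol. Beside Slc6a4 the higher ones were Lmo3 and Trdn. Lmo3 encodes a LIM-domain transcriptional regulator of forebrain neurons, and its values were 9.25, 8.75, 8.86, 8.47 and 8.79 in WT con and 10.49, 9.48, 8.76, 8.97 and 9.40 in KO con. KO con replicate 1 lay highest and KO con replicates 3 and 4 inside the WT range, with a difference of 0.60 (SE 0.24, limma p 0.0209, exact permutation p 0.0635). In the stressed arrays Lmo3 differed by -0.40 (SE 0.24, limma p 0.106), and its interaction of genotype and stress had an unadjusted limma p of 0.00783. Lmo3 was not called without KO con replicate 1 or 2, without WT con replicate 2 or 4, after quantile normalization or in the fit on the 10 unstressed arrays alone. Trdn, triadin of the calcium release complex of muscle, had values of 4.62, 5.03, 5.40, 4.54 and 4.90 in WT con and 5.70, 5.56, 6.08, 5.37 and 4.76 in KO con. These lie near the bottom of the array's range, and KO con replicates 4 and 5 lay among the WT arrays. Its difference was 0.59 (SE 0.23, limma p 0.0201, exact permutation p 0.0635), against 0.03 after stress, and it was not called under 6 of the 16 alternatives run.

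The lower probe sets with 1 symbol were Phxr4, Pramel27 and 4930447A16Rik. Phxr4 had values of 5.62, 6.74, 6.96, 6.09 and 6.22 in WT con and 5.44, 5.72, 5.56, 5.27 and 6.05 in KO con. The difference was -0.72 (SE 0.25, limma p 0.0109, exact permutation p 0.0317), and -0.60 (SE 0.25, limma p 0.0281) after stress. It was called under all 16 alternatives but the one without WT con replicate 3. Pramel27, of a family expressed in germ cells and early embryos, had values of 5.00, 5.64, 6.03, 5.56 and 5.33 in WT con and 5.01, 4.91, 5.20, 4.99 and 4.43 in KO con. The difference was -0.60 (SE 0.19, limma p 0.00453, exact permutation p 0.0238), and -0.23 after stress. 4930447A16Rik had values of 5.26, 6.44, 6.81, 6.08 and 6.30 in WT con and 5.73, 5.73, 5.27, 5.33 and 5.75 in KO con. The difference was -0.61 (SE 0.26, limma p 0.0284, exact permutation p 0.0714), and -0.68 (SE 0.26, limma p 0.0169) after stress. Of the 16 alternatives Pramel27 was not called under 5 and 4930447A16Rik under 6, quantile normalization among them for both. In all 3 genes WT con replicate 1 was the lowest WT array. It lay within the KO con range in Phxr4 and Pramel27 and below all KO con arrays in 4930447A16Rik.

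Of the called probe sets without a single symbol, several carry names of structural RNAs in the study's own list. Probe set 10454731, named there n-R5s, a small ribosomal RNA, had the lowest difference of the called ones and read 7.66, 6.91, 6.92, 7.40 and 7.95 in WT con and 7.13, 6.69, 5.90, 6.07 and 6.53 in KO con. KO con replicates 2 to 5 lay below all WT con arrays. Its difference was -0.90 (SE 0.29, limma p 0.00627, exact permutation p 0.0238), and -0.92 (SE 0.29, limma p 0.0055) in the stressed arrays. Probe set 10531928, not on that list, read 7.32, 6.94, 7.68, 7.03 and 7.52 in WT con and 7.18, 6.74, 6.56, 5.97 and 5.97 in KO con. The same 4 KO con arrays lay below all WT con arrays, with a difference of -0.81 (SE 0.28, limma p 0.0102, exact permutation p 0.0238) and -0.72 (SE 0.28, limma p 0.0198) after stress. These 2 probe sets and Slc6a4 were called under each of the 16 alternatives.

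Probe set 10374350, named Rnu6 in the study's list, a small nuclear RNA of the spliceosome, differed by -0.59 (SE 0.25, limma p 0.0305, exact permutation p 0.0556). Probe set 10389699 differed by -0.65 (SE 0.25, limma p 0.0187, exact permutation p 0.0397). On the higher side 10598023, named mt-Rnr1 there, a ribosomal RNA of mitochondria, differed by 0.60 (SE 0.22, limma p 0.0135, exact permutation p 0.0317) and 10562320 by 0.59 (SE 0.20, limma p 0.00903, exact permutation p 0.0159). Probe set 10567211, listed as a predicted gene, read 7.57, 7.91, 7.58, 7.80 and 7.92 in WT con and 8.48, 8.35, 8.40, 8.29 and 8.28 in KO con. All KO con arrays lay above all WT con arrays, with a difference of 0.60 (SE 0.11) and an adjusted p of 0.304 from limma. In the stressed arrays it differed by 0.20 (SE 0.11, limma p 0.0708). Several of these calls were sensitive to the settings. Of the 16 alternatives 10374350 was not called under 8, 10598023 under 7, 10562320 under 6, 10567211 under 5 and 10389699 under 2, and all but 10389699 were lost after quantile normalization. The remaining called probe set, shared by Gm15772 and Rpl26, is described with chromosome 11.

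Of the 16 transcripts that the study lists for this comparison 10 were called here and 6 were not. That list was chosen on these arrays, so that its directions, 7 higher and 9 lower, are no independent evidence. The uncalled ones were past the fold but had a wide spread over the 4 groups. Tac2, the precursor of neurokinin B, read 6.82, 7.53, 6.13, 6.17 and 6.15 in WT con and 7.12, 8.69, 7.72, 6.55 and 8.13 in KO con. KO con replicates 1 and 4 lay within the WT range, and the difference was 1.08 (SE 0.63, limma p 0.103, exact permutation p 0.0635). Unc13c, a synaptic vesicle priming factor, read 9.76, 9.38, 8.49, 8.33 and 8.45 in WT con and 10.87, 10.20, 9.56, 9.18 and 9.79 in KO con in the listed probe set. WT con replicates 1 and 2 lay within the KO range, and the difference was 1.04 (SE 0.58, limma p 0.0921, exact permutation p 0.0476). All 7 probe sets of Unc13c were higher in KO con, by 0.81 to 1.04, while in the stressed arrays they differed by -0.07 to 0.22. The others were Kcnj13 and Mir679, described with their lists, probe set 10398342, which carries the symbols Mir433 and 6430411K18Rik and differed by -0.66 (SE 0.39, limma p 0.106, exact permutation p 0.0476), and probe set 10557853, which differed by -0.59 (SE 0.31, limma p 0.0705, exact permutation p 0.0635).

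A second set of mice allowed the genotype difference to be measured again after stress. The 2 comparisons share no array, but the fit gives each probe set 1 estimate of spread for both, so that their p-values are not independent. In both comparisons 121 probe sets had an unadjusted p under 0.05 with the same direction (0.421%), 35 higher and 86 lower in KO, against 20 with opposite directions (0.0695%). Without WT stress replicate 1 these were 99 (0.344%) and 28 (0.0973%). Of the 14 called probe sets 13 had the same sign after stress, 6 of these with a p under 0.05, and 5 were called in both comparisons, against 12, 3 and 2 without WT stress replicate 1. With an unadjusted p under 0.01 in both and 1 symbol there were 8 genes, named here because of these values. They were Slc6a4, Trpv1, Fem1al, Tnfaip8l2, Mir185, Olfr1364, Lce1l and Ubtfl1. Without WT stress replicate 1 Slc6a4, Trpv1, Mir185 and Lce1l kept p under 0.01 in both, and the other 4 kept p under 0.05 in both. Tnfaip8l2, an inhibitor of innate and adaptive immune signalling, read 7.838, 7.492, 7.724, 7.472 and 7.782 in WT con and 7.341, 7.371, 6.998, 7.217 and 7.428 in KO con. All KO con arrays lay below all WT con arrays, with a difference of -0.39 (SE 0.11, limma p 0.00261, exact permutation p 0.00794) and -0.35 (SE 0.11, limma p 0.00613) after stress. Fem1al, a paralog of a ubiquitin ligase adaptor on chromosome 11 but 47.2 Mb from Slc6a4, read 6.71, 6.70, 6.98, 6.60 and 7.12 in WT con and 6.63, 6.56, 6.15, 6.00 and 6.24 in KO con, and 1 KO array reached the WT range. Its difference was -0.51 (SE 0.16, limma p 0.0051, exact permutation p 0.0159) and -0.51 (SE 0.16, limma p 0.00458) after stress. Olfr1364 (-0.31), Lce1l (-0.26) and Ubtfl1 (-0.27) had group means of 5.08 to 5.87 and were lower in KO in both comparisons.

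Neighbours of Slc6a4 on chromosome 11 were among the genes that differed in both comparisons. Genes close to a targeted locus are inherited together with it, and what part this has in the values of the neighbours was not tested. Within 5 Mb of Slc6a4 195 genes were measured, of which 8 were higher and 4 lower at p under 0.05, against 2.08% and 1.45% of all 19933 genes with 1 symbol. Leaving out 1 unstressed array gave 4 higher without KO con replicate 1 up to 10 without WT con replicate 2 or 3, and 2 lower, without WT con replicate 5 or KO con replicate 2, 3 or 5, up to 7 without WT con replicate 2. The counts over all 19933 genes moved too, from 267 to 951 higher and from 168 to 396 lower. With all arrays they were 415 and 290, and both were highest without WT con replicate 2. Of the 195 genes, 4 (2.05%) had the same direction at that p in both comparisons. Within 20 Mb these were 7 of 684 genes (1.02%), on the rest of chromosome 11 3 of 878 (0.342%) and over all genes with 1 symbol 69 of 19933 (0.346%). With WT stress replicate 1 left out the counts were 3 (1.54%), 6 (0.877%), 4 (0.456%) and 63 (0.316%), and Trpv1, Ctns, Nlrp1c-ps and Rangrf were the genes shared with the 7. The 7 genes all lay on the side of Slc6a4 with lower coordinates, between 18.1 and 3.74 Mb away. The median difference within 5 Mb was 0.02.

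Trpv1, the heat and capsaicin channel, lies 3.74 Mb away and read 5.49, 5.37, 5.54, 5.68 and 5.90 in WT con and 5.74, 5.96, 6.09, 5.97 and 6.00 in KO con. Only WT con replicate 5, at 5.90, and KO con replicate 1, at 5.74, overlapped. The difference was 0.36 (SE 0.11, limma p 0.00366, exact permutation p 0.0159), and 0.38 (SE 0.11, limma p 0.00229) after stress. Cyb5d2, a heme-binding protein 4.2 Mb away, read 7.21, 7.16, 7.08, 7.28 and 7.56 in WT con and 7.53, 7.51, 7.66, 7.67 and 7.78 in KO con. Here too WT con replicate 5, at 7.56, was the only WT con array within the KO con range. The difference was 0.37 (SE 0.12, limma p 0.00711, exact permutation p 0.0238), and 0.33 (SE 0.12, limma p 0.0147) after stress. Mybbp1a, a nucleolar repressor of transcription 4.55 Mb away, read 7.726, 7.945, 7.837, 7.895 and 8.014 in WT con and 8.239, 8.088, 8.105, 7.995 and 8.247 in KO con. WT con replicate 5 lay above 1 KO con array, and the difference was 0.25 (SE 0.07, limma p 0.00159, exact permutation p 0.0159), and 0.16 (SE 0.07, limma p 0.0306) after stress.

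Ctns and Nlrp1c-ps, on the same side, were lower, and are named because of their values. Ctns, the lysosomal cystine exporter, lies 3.8 Mb away and differed by -0.25 (SE 0.11, limma p 0.0344, exact permutation p 0.103) and by -0.27 (SE 0.11, limma p 0.0266) after stress. Nlrp1c-ps, an inflammasome pseudogene 5.71 Mb away, read 5.62, 6.02, 5.73, 5.83 and 5.65 in WT con and 5.62, 5.44, 5.54, 5.39 and 5.44 in KO con. The groups met at 5.62 without overlap, and the difference was -0.29 (SE 0.12, limma p 0.0286, exact permutation p 0.00794), and -0.41 (SE 0.12, limma p 0.00289) after stress. Rangrf (-0.20), a trafficking factor of a cardiac sodium channel, and the zinc finger gene Zfp39 (0.33) complete the 7. The Rangrf probe set, 10500683, is numbered apart from those of the genes beside it and was placed through its gene assignment alone. Where its probes lie was not tested. Nlk, a kinase of Wnt signalling 1.53 Mb on the other side, read 9.61, 9.79, 9.80, 9.53 and 9.45 in WT con and 10.46, 10.10, 9.84, 9.90 and 9.80 in KO con. The groups did not overlap, with a difference of 0.38 (SE 0.14, limma p 0.0155, exact permutation p 0.00794), but -0.01 after stress, and its interaction had an unadjusted limma p of 0.0698. The transcript 4930412M03Rik, 16.9 Mb away, differed by -0.22 (SE 0.06, limma p 0.00139, exact permutation p 0.0238) and by -0.02 after stress, with an unadjusted interaction p of 0.0234 from limma.

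**Figure D3:**
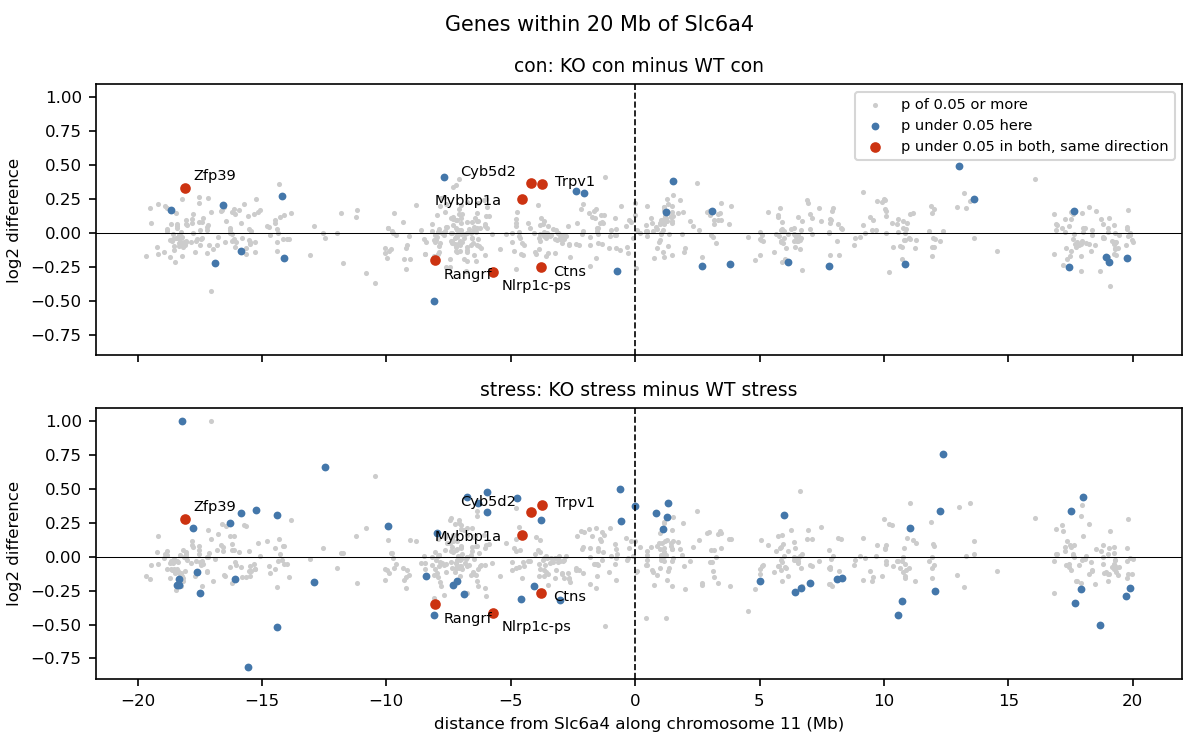
Log2 difference of KO and WT (y axis) for 684 genes against their distance from Slc6a4 along chromosome 11 in Mb (x axis, negative toward lower coordinates), in the unstressed arrays above and the stressed arrays below, with Slc6a4 itself left out and its place marked by the dashed line. The 7 genes in red, at p under 0.05 and with the same sign in both, lie between 18.1 and 3.74 Mb on 1 side.

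Rpl26, a protein of the large ribosomal subunit encoded 8.09 Mb from Slc6a4, gave opposite values from different probe sets. The probe set assigned to Rpl26 alone read 8.20, 7.94, 7.87, 8.14 and 7.53 in WT con and 7.91, 7.50, 7.41, 7.31 and 7.04 in KO con. KO con replicate 1 lay within the WT range and WT con replicates 3 and 5 within the KO range, with a difference of -0.50 (SE 0.15, limma p 0.00368, exact permutation p 0.0317). By contrast, 3 probe sets assigned to both Rpl26 and Gm15772, a ribosomal copy, were higher in KO con without overlap, by 0.62, 0.58 and 0.40. The first of these read 7.70, 7.94, 7.58, 7.96 and 8.02 in WT con and 8.43, 8.50, 8.65, 8.29 and 8.42 in KO con, with an SE of 0.12 and an adjusted p of 0.599 from limma, as for the second. Signs were the same in the stressed arrays, with -0.31 for the own probe set and 0.43, 0.43 and 0.25 for the shared ones. Ribosomal protein genes have many near-identical copies, so that which transcript a shared probe set reads is uncertain. The 60 genes of cytoplasmic ribosomal proteins, Rpl26 included, had a median of 0.01. Of these 1 (1.67%), Rpl26, was lower at p under 0.05 and none higher, against 1.67% and 1.9% of all probe sets.

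In several of these genes WT con replicate 5 lay on the KO side of the other WT con arrays. Of the way from the mean of WT con replicates 1 to 4 to the mean of KO con, its value covered 81.7% in Slc6a4, 87% in Trpv1, 84.1% in Cyb5d2, 84.7% in the own probe set of Rpl26 and 57.5% in Mybbp1a. It covered 45.7% in Ctns and 49% in Nlrp1c-ps, and in Nlk, Fem1al and Zfp39 it lay on the far side, at -68.8%, -85.8% and -11.9%. The genes were picked for their difference between the same arrays, and neither the cause nor the genotype label of this array was tested. All WT con means given include it unless stated. Without this array Trpv1 differed by 0.43, Cyb5d2 by 0.44, Mybbp1a by 0.28 and the own probe set of Rpl26 by -0.60.

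Beside Slc6a4, the serotonin receptor gene Htr5a was higher in KO con, and Aanat and Slc18a1 were lower, at an unadjusted p under 0.05. None of these passed the adjustment. Of 14 receptor genes 11 had higher and 3 lower values in KO con, with a median of 0.03 against 0.00 over all probe sets, and 1 (7.14%) was higher at p under 0.05, against 1.9% of all probe sets. This was Htr5a, a receptor coupled to inhibitory G proteins, which read 6.99, 7.08, 6.85, 7.01 and 6.96 in WT con and 7.31, 7.25, 7.23, 7.19 and 7.11 in KO con. The groups did not overlap, and the difference was 0.24 (SE 0.06, limma p 0.00149, exact permutation p 0.00794), and 0.06 (SE 0.06, limma p 0.387) after stress, where the interaction had an unadjusted limma p of 0.0588. Leaving out any 1 unstressed array kept it between 0.21 and 0.27.

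For the other receptors the intervals included 0. Htr1a, the inhibitory autoreceptor and postsynaptic receptor, differed by 0.03 (95% interval -0.63 to 0.68), Htr1b by 0.03 (-0.44 to 0.50) and Htr2c by 0.01 (-0.36 to 0.39). Htr2a, an excitatory receptor of cortical neurons, differed by 0.22 (-0.36 to 0.80) and the ion channel subunit Htr3a by 0.21 (-0.01 to 0.42). The further members Htr1d, Htr1f, Htr2b, Htr3b, Htr4, Htr5b, Htr6 and Htr7 lay between -0.10 and 0.27.

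Of 18 genes of serotonin synthesis, transport and breakdown none was higher and 2 (11.1%) were lower at p under 0.05, against 1.67% of all probe sets, with a median of -0.01. Leaving out 1 array gave 0 to 2, the 0 without KO con replicate 3 and the 2 without WT con replicate 4 or KO con replicate 2. Aanat, which acetylates serotonin on the way to melatonin, differed by -0.22 (SE 0.09, limma p 0.0206, exact permutation p 0.0159), and the vesicular transporter Slc18a1 by -0.19 (SE 0.08, limma p 0.0408, exact permutation p 0.0556), both at low signals. Tph2, the enzyme of serotonin synthesis in neurons, read at most 5.40 in any unstressed array, near the bottom of the array's range, and differed by -0.09. Maoa, the main serotonin-degrading enzyme, differed by 0.21 (95% interval -0.11 to 0.53). Of the transporters that can take up serotonin beside 5-HTT, Slc29a4 differed by 0.14, Slc22a2 by -0.25, the dopamine transporter Slc6a3 by -0.07 and the noradrenaline transporter Slc6a2 by -0.02. None of these had a p under 0.05. Among 11 markers of raphe serotonin neurons the median was -0.06 with no p under 0.05.

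Some neuropeptide genes had differences past the fold of 1.5 without reaching the p of the criterion. Of 35 precursors 22 were higher in KO con, the median was 0.10 and none had a p under 0.05. Tac1, the precursor of substance P, read 10.78, 9.35, 8.37, 7.58 and 8.07 in WT con and 10.48, 10.71, 8.50, 9.05 and 10.51 in KO con. WT con replicate 1 was the highest of all arrays and KO con replicates 3 and 4 lay within the range of the other WT con arrays, with a difference of 1.02 (SE 0.79, limma p 0.213, exact permutation p 0.206). Penk, the enkephalin precursor, read 12.29, 11.15, 10.60, 10.05 and 10.28 in WT con and 12.05, 12.11, 10.69, 10.98 and 11.95 in KO con. The same arrays were high and low as for Tac1, and the difference was 0.68 (SE 0.60, limma p 0.274, exact permutation p 0.214). Pmch, the precursor of melanin-concentrating hormone, differed by 0.62 (SE 0.73, limma p 0.405, exact permutation p 0.325). Of the tachykinin receptors, Tacr1 differed by 0.39 (SE 0.28), Tacr3 by 0.47 (SE 0.40) and Tacr2 by -0.08 (SE 0.07).

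Markers of striatal and central amygdala neurons, Penk among them, were high in the same arrays. Of 19 measured markers 18 were higher in KO con, with a median of 0.48, and 1 had a p under 0.05. Of all probe sets at their range of signal, 8 to 9, 77.3% were higher, and 1.9% of all probe sets were higher at p under 0.05. The member at that p was Tshz1, a transcription factor of intercalated and striatal neurons, at 0.51 (SE 0.21, limma p 0.0281, exact permutation p 0.0397). The list score, the mean of the members after centring each over the 10 arrays, was 0.78, -0.02, -0.48, -0.58 and -0.61 in WT con and 0.57, 0.41, -0.49, -0.26 and 0.70 in KO con. WT con replicate 1 was the highest of all, and KO con replicate 3 lay at the level of the lowest WT con arrays. Without WT con replicate 1 the median was 0.63 and without KO con replicate 5 it was 0.23. After stress the median was 0.02. Beside Penk, the largest differences were those of Scn4b (0.70), Rgs9 (0.68) and Rxrg (0.63), genes of striatal projection neurons. In a piece of tissue, fewer cells of a type and less RNA per cell cannot be told apart, and the part of this list in the peptide values was not tested.

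Markers of choroid plexus and of the meninges had lower medians in KO con than in WT con and higher ones in KO stress than in WT stress. All 18 measured choroid plexus markers were lower, with a median of -0.32, none at p under 0.05. Of all probe sets at their range of signal, 6 to 7, 63.1% were lower. After stress the median of the markers was 0.42 with 17 of 18 higher, again none at p under 0.05. Most of these markers, and some of the meningeal ones, are on the study's list for KO stress against KO con. That list was chosen on these same arrays, so that these directions are no independent evidence. Choroid plexus scores were 0.70, -0.41, -0.53, 3.07 and -0.12 in WT stress and 1.16, 2.26, -0.09, 1.26 and 0.64 in KO stress. WT stress replicate 4 was the highest, and KO stress replicate 3 lay near WT stress replicate 5. Ttr, the thyroxine carrier made by choroid plexus, ranged from 6.74 to 12.02 in WT con and from 6.54 to 10.59 in KO con, with a difference of -1.36 (SE 1.22, limma p 0.278, exact permutation p 0.286). Kcnj13, a potassium channel of the same epithelium and on the study's list, read 7.47, 7.61, 7.49, 6.71 and 7.65 in WT con and 7.05, 5.61, 6.24, 6.09 and 6.78 in KO con. KO con replicates 1 and 5 lay above WT con replicate 4 and the other 3 KO con arrays below all WT con arrays, with a difference of -1.04 (SE 0.87, limma p 0.249, exact permutation p 0.0238) and 1.22 after stress. The limma p uses the spread of all 4 groups and the exact p the unstressed arrays alone. Meningeal markers had a median of -0.18, but of 0.15 without WT con replicate 3, whose list score, defined as above, stood far above the other arrays. Cilia and ependyma had a median of -0.06, which became 0.04 without KO con replicate 1.

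Microglial markers were the only cell type list whose array scores did not overlap between the groups. Of 15 measured members 13 were higher in KO con, against 50.1% of all probe sets, with a median of 0.19. Of the 15 members 2 (13.3%) were higher at p under 0.05, against 1.9% of all probe sets. Without overlap 1 member was higher, against 0.445% of all probe sets. The scores were -0.02, -0.11, -0.13, -0.02 and -0.14 in WT con and 0.35, 0.02, 0.00, 0.04 and 0.00 in KO con, with KO con replicate 1 above the rest. C1qb, a chain of complement C1q, read 7.88, 8.12, 7.89, 8.06 and 7.74 in WT con and 8.54, 8.16, 8.13, 8.26 and 8.16 in KO con. The groups did not overlap, with a difference of 0.31 (SE 0.12, limma p 0.019, exact permutation p 0.00794). Itgam, the integrin subunit CD11b, differed by 0.23 (SE 0.10, limma p 0.0384, exact permutation p 0.0159), and Ly86, a partner of a Toll-like receptor homolog, by 0.48 (SE 0.23, limma p 0.0544, exact permutation p 0.0159). After stress the list median was 0.01, with C1qb at 0.23 and Itgam at -0.02. Of all probe sets with a mean signal of 7 to 8, the range of the list's median signal, 63.2% were higher in KO con, and after quantile normalization the median of the list was 0.12 and 1 had a p under 0.05. Without KO con replicate 1 the median was 0.09, with none higher and 1 lower at p under 0.05. Without WT con replicate 5 it was 0.17, again with none higher at that p.

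Synaptic genes were mostly higher, as were most probe sets of their signal. Of 26 genes of vesicle priming and release 23 were higher in KO con, with a median of 0.16 and none at p under 0.05, and after stress the median was -0.08. Of all probe sets at their range of signal, 9 to 10, 80.7% were higher in KO con, with a median of 0.09. GABA-A receptor subunits were higher in 13 of 15, with a median of 0.21, and 0.01 after stress. At their range, 8 to 9, 77.3% of all probe sets were higher, with a median of 0.09. Gabra3 differed by 0.35 (SE 0.22, limma p 0.14, exact permutation p 0.0317) and Gabrq by 0.40 (SE 0.57, limma p 0.49, exact permutation p 0.317). Syt2, a calcium sensor of release, differed by 0.47 (SE 0.34, limma p 0.184, exact permutation p 0.143) and Stx1a, a syntaxin of vesicle fusion, by 0.37 (SE 0.24, limma p 0.14, exact permutation p 0.27). Without KO con replicate 2 the median of the GABA-A subunits was 0.09, and without KO con replicate 1 that of the release genes was 0.10. Quantile normalization left 10 of 15 GABA-A subunits higher with a median of 0.12, and 22 of 26 release genes higher with a median of 0.11. Glutamate receptors had a median of -0.02 over 22 genes and pallial excitatory neuron markers of 0.13 over 20.

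Astrocyte markers had a median of 0.09, oligodendrocyte markers of 0.08 and endothelial markers of -0.04, with no member at p under 0.05. The astrocyte median was 0.03 without KO con replicate 1, and the oligodendrocyte median 0.01 without WT con replicate 1. The endothelial median was 0.13 without WT con replicate 3. Genes of the stress hormone system had a median of 0.00 over 23 members. Of these 1 (4.35%) was lower at p under 0.05, against 1.67% of all probe sets. This was Ucn2, a ligand of the second CRH receptor, which read 6.01, 5.75, 5.70, 5.72 and 5.76 in WT con and 5.67, 5.59, 5.53, 5.55 and 5.28 in KO con. The groups did not overlap, with a difference of -0.26 (SE 0.11, limma p 0.0236, exact permutation p 0.00794) at low signal. Crh differed by 0.34 (SE 0.39). Immediate early genes, which report recent neuronal activity, had a median of 0.05 over 26 members. Of these 1 (3.85%) was higher at p under 0.05, against 1.9% of all probe sets. Plk2, a kinase of synaptic scaling, was the one at p under 0.05, at 0.57 (SE 0.25, limma p 0.0335, exact permutation p 0.119), and at -0.44 (SE 0.25, limma p 0.093) after stress, with an unadjusted interaction p of 0.0099 from limma. Npas4, a transcription factor induced by activity, differed by -0.27 (SE 0.20, limma p 0.194, exact permutation p 0.0317). Nuclear genes of the respiratory chain had a median of 0.05 over 80 members. Of these 1 (1.25%) was higher at p under 0.05, against 1.9% of all probe sets. This was Uqcrc1, a core subunit of complex III, at 0.33 (SE 0.14, limma p 0.0314, exact permutation p 0.00794) without overlap.

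**Figure D4:**
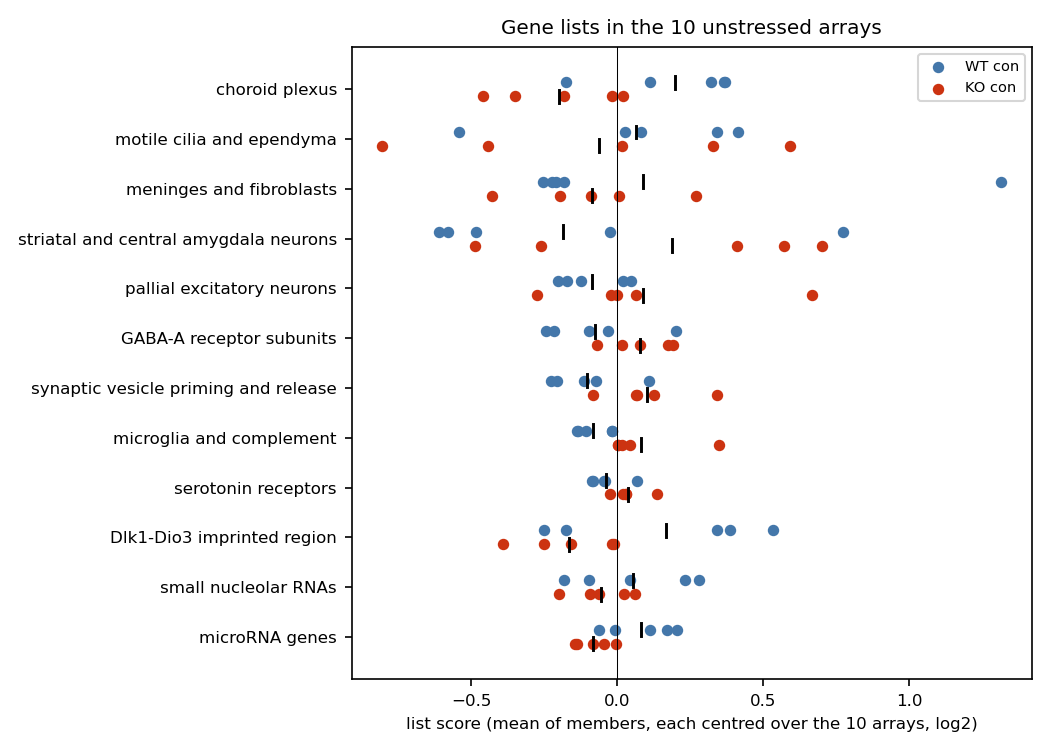
Scores of 12 gene lists (y axis) in the 10 unstressed arrays (x axis, log2), where a score averages the members of a list, each set to a mean of 0 over these arrays, points are arrays and black ticks are group means. Groups separate for microglia and complement, while the striatal list spans -0.61 to 0.78 in WT con and -0.49 to 0.70 in KO con.

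Most microRNA genes had lower values in unstressed KO than in unstressed WT mice, as had most probe sets of low signal. Of 296 microRNA genes 263 had lower and 30 higher values in KO con, the median was -0.14, and 22 (7.43%) were lower and none higher at p under 0.05, against 1.67% of all probe sets lower. Over all probe sets 49.8% were lower in KO con, and 74.4% of those with a mean signal of 5 to 6, the range of the microRNA genes' median signal. Groups did not overlap in 8, all lower (0.41% of all probe sets). In the stressed arrays the median was -0.19, and 35 were lower and none higher at that p, against 6.23% of all probe sets lower and 3.05% higher. The scores there were 0.59, 0.03, 0.31, -0.20 and -0.13 in WT stress and -0.09, -0.10, -0.11, -0.04 and -0.17 in KO stress, so that WT stress replicates 1 and 3 stood above the rest, replicate 4 lay below the KO stress arrays and replicate 5 among them. The median after stress was -0.08 without WT stress replicate 1, with 11 lower (2.82% of all probe sets), while in the unstressed comparison, whose spread it enters, 57 were lower (4.07%). The array scores were -0.01, 0.11, 0.20, -0.06 and 0.17 in WT con and -0.08, -0.05, -0.14, -0.14 and 0.00 in KO con, and WT con replicates 1 and 4 lay within the range of the KO con arrays. Without WT con replicate 5 the count at p under 0.05 was 9, and over all arrays left out singly it ranged from 9 to 31, with medians of -0.17 to -0.12. MicroRNAs are short regulators that bind messenger RNAs through the seed, bases 2 to 8, and are cut from longer hairpins. Which form of the RNA these probe sets read was not tested.

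These mature sequences belong to the 4 microRNA genes with p under 0.05 and the same direction in both comparisons, Mir185, Mir697, Mir92b and Mir501, with the seed in capitals (RefSeq, GRCm38.p6).
mmu-miR-185-3p: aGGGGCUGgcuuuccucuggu
mmu-miR-697: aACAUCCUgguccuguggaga
mmu-miR-92b-3p: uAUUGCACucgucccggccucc
mmu-miR-92b-5p: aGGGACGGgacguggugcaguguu
mmu-miR-501-3p: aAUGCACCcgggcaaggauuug
mmu-miR-501-5p: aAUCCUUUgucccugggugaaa

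Mir185 read 7.44, 7.17, 7.27, 7.13 and 7.04 in WT con and 6.85, 7.02, 6.80, 6.80 and 6.85 in KO con. All KO con arrays lay below all WT con arrays, with a difference of -0.34 (SE 0.12, limma p 0.00848, exact permutation p 0.00794) and -0.39 (SE 0.12, limma p 0.00333) after stress. The 3p arm lies at chr16:18327405-18327425 on the minus strand. Mir697 read 6.94, 6.74, 6.72, 6.47 and 6.90 in WT con and 6.53, 6.43, 6.35, 6.34 and 6.57 in KO con. WT con replicate 4 was the WT array within the KO range, with a difference of -0.31 (SE 0.11, limma p 0.0108, exact permutation p 0.0238) and -0.25 (SE 0.11, limma p 0.0321) after stress. Mir92b differed by -0.30 (SE 0.14, limma p 0.0448, exact permutation p 0.0238) and by -0.41 (SE 0.14, limma p 0.00853) after stress. Mir501 differed by -0.29 (SE 0.13, limma p 0.0481, exact permutation p 0.0556) and by -0.29 (SE 0.13, limma p 0.0447) after stress. Mir185 and Mir92b kept p under 0.05 in both comparisons without WT stress replicate 1, and in that fit after stress Mir697 differed by -0.14 and Mir501 by -0.20. The seeds of these 4 genes differ from each other, and the 39 mature sequences found for the microRNA genes at p under 0.05 and for Mir679 had 39 different seeds. RefSeq gave a mature sequence for 21 of the 22 genes.

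Of the microRNA genes whose groups did not overlap in the unstressed arrays, 3 are shown for their position or level, namely Mir193a near Slc6a4, Mir412 of an imprinted cluster and Mir680-3 at a higher signal.
mmu-miR-193a-5p: uGGGUCUUugcgggcaagauga
mmu-miR-193a-3p: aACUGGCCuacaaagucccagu
mmu-miR-412-5p: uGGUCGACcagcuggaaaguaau
mmu-miR-412-3p: uUCACCUGguccacuagccg
mmu-miR-680: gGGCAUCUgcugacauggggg

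Mir193a, at chr11:79711975-79711996 on the plus strand for its 5p arm, lies 2.68 Mb from Slc6a4. It read 5.63, 5.56, 5.56, 5.51 and 5.80 in WT con and 5.48, 5.32, 5.30, 5.40 and 5.34 in KO con, with a difference of -0.25 (SE 0.11, limma p 0.0376, exact permutation p 0.00794) and -0.21 (SE 0.11, limma p 0.0752) after stress. Mir412 read 5.61, 5.46, 5.60, 5.46 and 5.64 in WT con and 5.42, 5.29, 5.35, 4.74 and 4.91 in KO con. KO con replicates 4 and 5 were lowest, and the difference was -0.41 (SE 0.19, limma p 0.0447, exact permutation p 0.00794) and -0.38 (SE 0.19, limma p 0.0599) after stress. Mir680-3 read 8.22, 7.90, 8.18, 7.86 and 8.16 in WT con and 7.86, 7.57, 7.42, 7.59 and 7.79 in KO con, with a difference of -0.42 (SE 0.20, limma p 0.049, exact permutation p 0.00794) and -0.38 (SE 0.20, limma p 0.0708) after stress.

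Mir412 belongs to the imprinted Dlk1-Dio3 region of chromosome 12, which holds a long run of microRNA genes expressed from the maternal copy. Of 42 measured members of that region 40 were lower in KO con, with a median of -0.36. Of all probe sets at the region's range of signal, 6 to 7, 63.1% were lower. A p under 0.05 was reached by 1 member (2.38%), lower in KO con, against 1.67% of all probe sets. Mir679, on the study's list, read 8.85, 9.27, 9.66, 8.63 and 9.37 in WT con and 8.46, 8.91, 8.31, 8.11 and 8.88 in KO con. KO con replicates 1, 3 and 4 lay below all WT con arrays, with a difference of -0.62 (SE 0.38, limma p 0.122, exact permutation p 0.0476), and Mir665 differed by -0.62 (SE 0.38, limma p 0.118, exact permutation p 0.0794). The region's scores were -0.25, 0.34, 0.53, -0.18 and 0.39 in WT con and -0.25, -0.02, -0.16, -0.39 and -0.01 in KO con, so that 3 WT con arrays lay above and 2 among the KO con arrays. After stress the region's median was -0.42, and -0.16 without WT stress replicate 1. Small nucleolar RNAs, guides of RNA modification, were lower in 42 of 51, against 63.1% of all probe sets at their range of signal, also 6 to 7. Their median was -0.10, and 1 (1.96%) was lower at p under 0.05, against 1.67% of all probe sets. After stress the median was -0.27 and 13 were lower at that p, against 6.23% of all probe sets. Their scores were 0.64, 0.06, 0.48, -0.21 and -0.07 in WT stress, with replicates 1 and 3 apart and replicates 4 and 5 within the KO stress range of -0.21 to 0.01, and without WT stress replicate 1 the median was -0.13 with 3 lower.

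The deficit of microRNA genes grew with their signal. At a mean signal of 4 to 5 their median difference was -0.03, at 5 to 6 -0.13, at 6 to 7 -0.23 and at 7 to 8 -0.28, whereas all probe sets of these ranges had medians of -0.02, -0.05, -0.04 and 0.05. After quantile normalization the medians of microRNA genes in these ranges were -0.01, -0.08, -0.21 and -0.31, while those of all probe sets lay between -0.01 and 0.01. Over the whole list this normalization left a median of -0.11, with 16 lower and 1 higher at p under 0.05. Of all 28767 probe sets 413 were lower and 466 higher at that p after it. The list includes microRNA genes of the Dlk1-Dio3 region, whose members had a median signal of 6.97. The part of that region in the trend with signal was not tested.

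**Figure D5:**
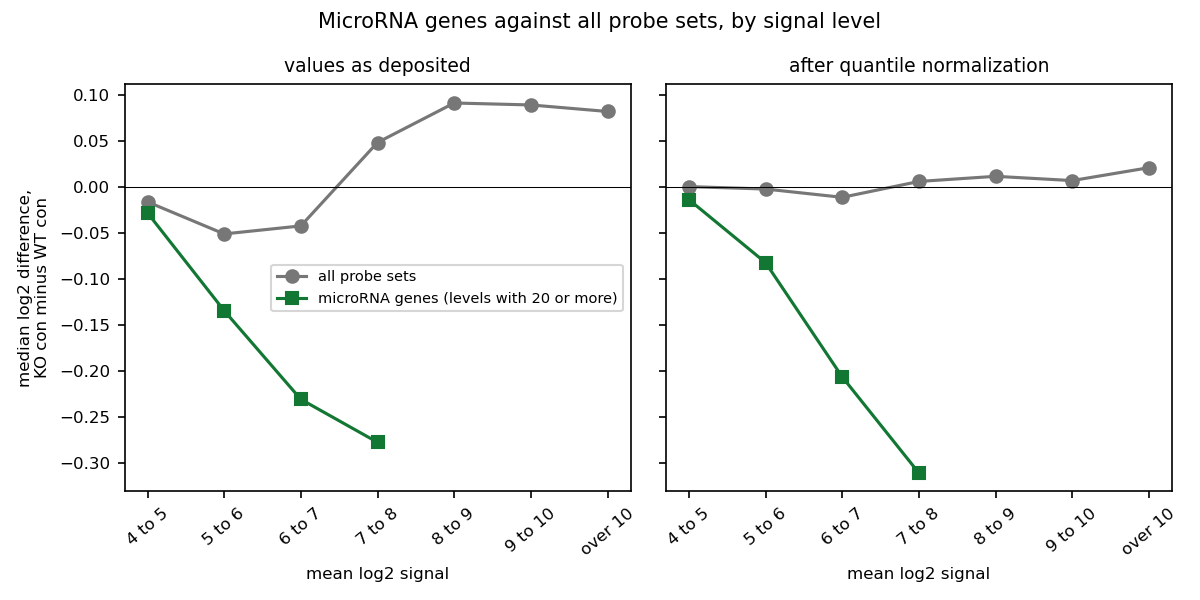
Median log2 difference of KO con and WT con (y axis) by range of mean log2 signal (x axis) for all probe sets in grey and microRNA genes in green, with the values as deposited on the left and after quantile normalization on the right. Only ranges with 20 or more microRNA genes are drawn for these, and in them the green line falls from -0.03 to -0.28 on the left and from -0.01 to -0.31 on the right.

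The genotype difference before stress was also set against that after stress. For the interaction of genotype and stress no probe set reached an adjusted p under 0.05 (limma, 0%), and 724 had an unadjusted p under 0.05 (2.52%), or 1087 (3.78%) without WT stress replicate 1. In the stressed arrays 2670 probe sets had an unadjusted p under 0.05 (9.28%), against 1026 in the unstressed arrays. The order turned without WT stress replicate 1, with 1221 (4.24%) against 2273. The difference between those counts was not tested. Among the named genes the smallest unadjusted interaction p-values were those of Lmo3 and Plk2, which were higher in KO con and lower in KO stress. Both were named for their difference in the unstressed arrays, which is a part of the interaction, so that this choice favoured small values. Named probe sets for which no adjusted p is printed had values of 0.929 or more from limma.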

How the data were processed

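Amygdala RNA of single mice was hybridised to Affymetrix Mouse Gene 1.0 ST arrays. The deposited values are log2 signals of 28767 probe sets, which the authors summarized and normalized over all 20 arrays with ExonRMA in ArrayAssist, with variance stabilization. They were used as deposited, without a filter. Scanner files were not used here. All values therefore share 1 normalization, and the number of arrays, not read depth, limits the precision.

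Linear models were fitted with limma 3.58.1 in R 4.3.3 on the 4 groups (residual df 16) with eBayes, Benjamini-Hochberg adjustment over all probe sets and contrasts of KO con against WT con, KO stress against WT stress and their difference. The methods of the study used an unpaired t-test with a fold over 1.5 and p under 0.05, and this criterion was applied to limma's p. Exact permutation tests were two-sided. Scripts were tested on simulated data.

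Symbols came from the platform annotation, with 21776 probe sets assigned to 1 symbol (19933 genes), 1618 to several and 5373 to none, and 21686 were placed on GRCm38.p6 through RefSeq. A gene with several probe sets was represented by the one with the highest mean signal unless stated. Named were Slc6a4, the called probe sets, the transcripts of the study's list, up to 4 members of each described list with the largest difference, the 6 genes within 20 Mb of Slc6a4 with the smallest p and members of the serotonin and tachykinin lists. Members at p under 0.05, genes at p under 0.01 or neighbours at p under 0.05 in both comparisons, and microRNA genes were named after their values were seen. The comparison, lists and members were chosen with earlier results of these data known. Alternatives were the unstressed arrays alone, quantile normalization, median centring, trend and robust eBayes, array weights, a replicate block, filters, other thresholds and leaving out each unstressed array. Leaving out WT stress replicate 1 was added after the data were seen.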

Additional observations from a re-analysis of the deposited data

Results flagged for a closer look

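Within the groups of 5 unstressed arrays, the lowest or highest array was tested for a gap to its nearest neighbour over 0.71 of the group's range (Dixon's test), for 32 named genes and 34 lists in each group. Of 132 groups tested 10 had such an array, and chance alone gives about 1 in 20. WT con replicate 3 stood high in the scores of meninges and fibroblasts (1.315), endothelium and mural cells (0.7607) and MHC class II and antigen presentation (0.2831). WT con replicate 1 stood apart in the scores of dopamine and noradrenaline genes (0.4658), other imprinted genes (-0.293), genes within 5 Mb of Slc6a4 (-0.1076) and serotonin receptors (0.06665). WT con replicate 2 stood high in thalamic markers (1.118), and KO con replicate 1 in microglia and complement (0.3491). In Kcnj13 WT con replicate 4 stood low, with a log2 signal of 6.713. Why these arrays stood apart was not tested. No genotype difference differed between the unstressed and the stressed arrays at an adjusted interaction p under 0.05 (limma), and 724 probe sets had an unadjusted p under 0.05.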

How the results depend on the processing

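The number of called probe sets moved with the settings. It was 14 (7 higher, 7 lower), and 28 (14 and 14) on the 10 unstressed arrays alone, 7 (2 and 5) after quantile normalization, 75 (42 and 33) with array weights, 6 (3 and 3) over probe sets with 1 symbol and 6 (4 and 2) at p under 0.01. Leaving out 1 array gave 8 to 87, the lowest without WT con replicate 3 and the highest without WT con replicate 1. Other settings stayed within 1.5 times the count, with 17 (12 and 5) after centring on array medians, 16 with a trend and robust eBayes, 15 with a mean signal of at least 5, 17 with folds of linear means, 18 with unequal variances and 20 with the methods' t-test, and 16 without WT stress replicate 1, an alternative chosen after seeing the data.

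At an adjusted p under 0.05 there were 0 probe sets, and 1 with a trend and robust eBayes, 3 with array weights, 1 with a mean signal of at least 5 and 0 to 1 with 1 array left out, where the 1 came without WT con replicate 5. Slc6a4 was higher in KO con in all settings run. Its difference was 1.54 with a trend and robust eBayes (adjusted p = 0.0393, limma), 1.54 with array weights (adjusted p = 0.0198, limma), 1.49 after quantile normalization and 1.34 to 1.84 with 1 array left out, the highest without WT con replicate 5. Its adjusted p over the settings that keep all arrays of a group ran from 0.0198 to 0.677 (limma).

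Labels number the replicates 1 to 5 in each group without saying that a number marks shared animals or days. Deviations of same-numbered KO con and WT con arrays correlated at 0.0603 to 0.331, over 0.1 in 3 of 5 pairs, and 3 of 5 KO con arrays had their highest correlation with the array of the same number. With the replicate number as a block 20 probe sets were called (12 and 8), 0 had an adjusted p under 0.05, and Slc6a4 had 1.54 (adjusted p = 0.241, limma).

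The 5 arrays of each group limit the precision, and signals near 5 lie close to the bottom of the range.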

Other observations

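Neuron classes of neighbouring regions differed little at p under 0.05 in the unstressed comparison. Markers of GABAergic interneurons were higher in KO con in 12 of 18, with a median log2 difference of 0.04, and those of hypothalamic and medial amygdala neurons in 14 of 23, with a median of 0.06. Granule neuron markers had a median of 0.13 over 15 genes, which became -0.00 without KO con replicate 1. Thalamic markers had a median of 0.11 over 16 genes, which became -0.16 without KO con replicate 3. Genes of dopamine and noradrenaline signalling were higher in 7 of 10, with a median of 0.17. No member of these 5 lists had a limma p under 0.05.

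Imprinted genes outside the Dlk1-Dio3 region had a median of 0.06 over 27 genes, and of -0.04 without WT con replicate 1. MHC class II and antigen presentation genes were lower in 7 of 10, with a median of -0.07. Both measured red blood cell markers were lower, with a median of -0.10.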
